A study of Bos taurus with 12 samples.

Results

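The epithelial captures were 6 of the 12 arrays of a series on the bovine mammary gland before calving, and they were chosen by their sample titles alone. Each came from a different Holstein cow, dry and 3 weeks prepartum, and the other 6 arrays held intralobular stroma of the same cows. Biopsied tissue was kept for 2 h as explants in medium with insulin, hydrocortisone and the thymidine analogue BrdU, so all 6 captures share that short culture. Epithelium was then cut from stained frozen sections by laser capture microdissection, and lysates from more than 1 slide of a cow were pooled before amplification and hybridization to the Bovine GeneChip. Lactation number was 3 in cow 1, 2 in cow 2 and 1 in cows 3, 4, 5 and 6 per the labels, whereas the study's methods describe the cows as multiparous. Values are log2 RMA values, a logarithmic measure of the brightness of a probe set, and 1 unit is a doubling. Brightness also depends on the probes, so the ranks of genes given here are ranks of brightness and not of transcript number. A bulk capture cannot tell fewer cells making a transcript from less transcript per cell, and with 6 arrays the number of cows limits the precision of every value.

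In late pregnancy the secretory cells of the mammary alveoli begin to make milk components, under prolactin, glucocorticoid and insulin, while ducts and alveoli are still growing. The caseins are the phosphoproteins that form milk micelles. Alpha-lactalbumin joins a galactosyltransferase in the Golgi to form the enzyme that makes lactose, and fat leaves the cell in droplets wrapped in apical membrane that carries butyrophilin and xanthine dehydrogenase.

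The file lists 24016 probe sets other than controls, and the brightest 42% by mean over the 6 arrays, 10086 probe sets, were analysed. They stand for 5206 genes, each by its brightest probe set with 1 symbol. Array medians lay between 2.95 and 3.08, so a value near or below 3 is at the level of an ordinary dim probe set. Averaged over its 5 partners, the correlation of an array ran from 0.697 in cow 3 to 0.771 in cow 4. GAPDH, a glycolytic enzyme with control probe sets at both ends of its transcript, was brighter at its 3′ end on every array. The gap was 0.93 in cow 3 to 3.59 in cow 1 on the log2 scale. Spiked polyadenylated control RNAs had array means of 2.96 in cow 1 to 6.68 in cow 3.

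The 6 luminal markers were measured in all 6 captures. Each lay above the array median on every array. VIM, COL1A1 and PTPRC of other cell types did too, so this alone does not set epithelium apart. KRT7, a keratin of simple epithelium, ran from a log2 value of 9.51 in cow 5 to 10.36 in cow 1, with a mean of 9.99 ± 0.36 (SD, n = 6). EPCAM, an epithelial adhesion molecule, ran from 9.09 in cow 5 to 10.24 in cow 4. Cow 6, whose milk genes stood far below the rest, had 10.33 for KRT7 and 10.23 for EPCAM, close to the top of both ranges. CDH1, the cadherin of epithelial junctions, lay between 7.39 and 8.85. ESRP1, a splicing factor of epithelial cells, was instead lowest in cow 6 at 7.16 and highest in cow 4 at 9.03. PRLR, the prolactin receptor, was between 7.49 and 8.50 and was highest in cow 6. KRT8 was the dimmest of the markers and the most uneven, from 4.94 in cow 5 to 7.28 in cow 4. By their brightest probe sets none of these 6 genes had an SD above 1, but the second probe set of CDH1 had 1.01. Of 13 further analysed luminal markers, 3 exceeded 1. Over all analysed genes 30.8% did, with 17.2% for means from 7 to 9 and 7.30% from 9 to 11.

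Markers of other cell types were also present to some extent. Of all genes on the array 56.9% were bright enough to be analysed, and of the 15 fibroblast markers 10 were. Their mean ran from 3.85 in cow 4 to 6.16 in cow 5, with PDGFRA, a fibroblast receptor, at 3.07 to 3.87 but COL3A1, COL1A1 and COL1A2 above 8 in cow 5. The endothelial list had 3 of 14 markers among the analysed genes, the macrophage list 7 of 11, the T and NK cell list 8 of 15, the plasma and B cell list 2 of 6 and the red blood cell list 0 of 7, so the endothelial, plasma cell and red cell shares were well below that of all genes and the others were close to it or above. PTPRC, the common leukocyte antigen, lay between 7.48 and 9.46 and was as bright as several luminal markers. Myoepithelial cells touch the luminal layer, and KRT5, a keratin of that basal layer, was at 7.48 to 9.95. ACTA2, the smooth muscle actin of the same cells, ranged from 2.96 in cow 2 to 6.61 in cow 3.

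The genes with the highest mean values were mostly those of protein synthesis. Of the 25 highest, 12 encode ribosomal proteins, and 23 had an SD below 0.5. B2M, the light chain of class I antigen-presenting molecules, ranked first with a mean of 12.76 ± 0.13 (SD, n = 6) and values from 12.59 in cow 4 to 12.94 in cow 6. TPT1, a growth-associated protein, had a mean of 12.68 ± 0.09. EEF1A1, which brings aminoacyl-tRNA to the ribosome, had the smallest SD of all 5206 genes, 0.06 around a mean of 12.11. Milk proteins were already in this group. CSN3, the kappa casein that caps the micelle, ranked 10th, and CSN2, the beta casein, ranked 12th. Their means were 12.06 ± 0.50 and 11.98 ± 1.64 (SD, n = 6), and the SD of CSN2 was the largest among the 25. S100A2, a calcium-binding protein, ranked 4th at 12.27 ± 0.52, and EZR, which ties actin to the apical membrane, ranked 16th. ACTB and TMSB10 of the actin cytoskeleton, the iron-storage gene FTH1 and the transcription factors JUN and JUND were the others outside translation. Of the 25 brightest probe sets, 10 had no single gene symbol and are not described.

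Spread and level were related. The median SD of genes was 0.84 for means from 3.51 to 5, 0.86 from 5 to 7, 0.63 from 7 to 9, 0.40 from 9 to 11 and 0.23 above 11. Among analysed genes 1605 had an SD above 1, 86 an SD above 2 and 183 an SD below 0.25. The 64 cytosolic ribosomal protein genes were even as a group, with a median SD of 0.27 against 0.77 over all genes. Only RPSA, a protein of the small ribosomal subunit that also serves as a laminin receptor, exceeded 1 there, with 11.22 in cow 3 and 7.63 to 8.53 in the other cows. Of the 64 genes, 40 were lowest in cow 2, where 19.3% of all genes were lowest. Its mean was 10.21 in cow 2 and 10.40 to 10.69 elsewhere.

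**Figure D1:**
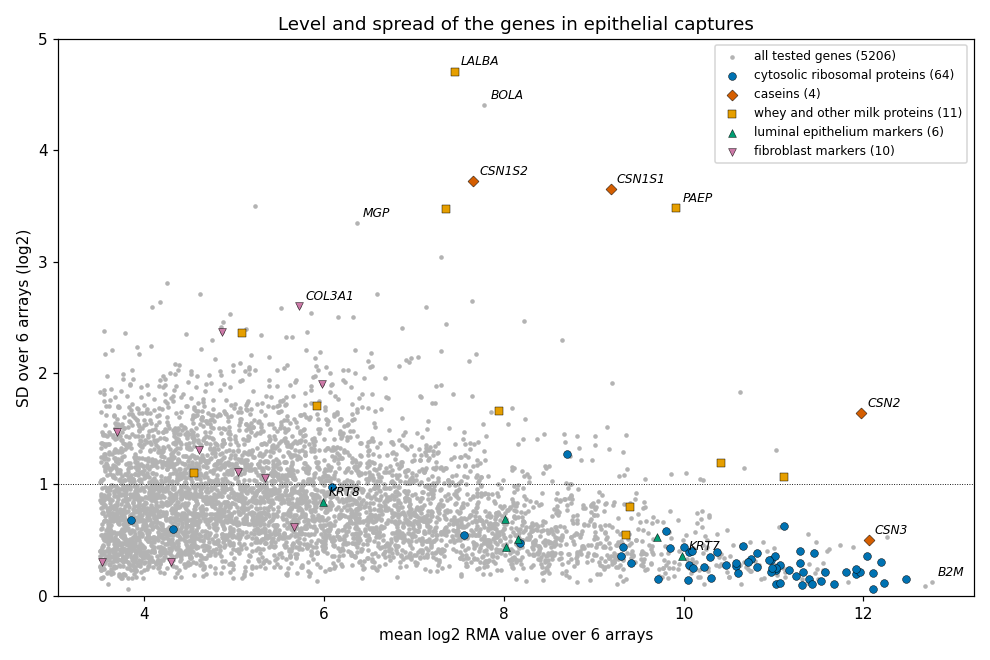
Each grey point is 1 of the 5206 analysed genes, with its mean log2 RMA value over the 6 epithelial arrays on the x axis and its SD over those arrays on the y axis, and coloured symbols mark 5 gene lists with the number of genes in brackets. The dotted line is an SD of 1. Caseins other than CSN3, LALBA and PAEP stand far above genes of similar level, and ribosomal proteins lie along the bottom right.

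The largest spread of any gene was in milk synthesis. LALBA, the alpha-lactalbumin gene, had log2 values of 9.52, 12.04, 10.15, 1.52, 10.04 and 1.43 in cows 1 to 6, and its SD of 4.71 ranked first. It was bright in 4 cows and below the array median in cows 4 and 6, with no value between. PAEP, the beta-lactoglobulin gene, had 11.99, 12.20, 12.53, 6.39, 11.79 and 4.61, again low in cows 4 and 6 though not at background. GLYCAM1, a mucin-like protein of milk, had 9.73, 11.60, 9.18, 3.88, 6.97 and 2.75, and BTN1A1, butyrophilin of the fat globule membrane, had 8.32, 8.85, 9.82, 3.97, 9.90 and 2.97. In each of these genes cow 6 was lowest and cow 4 next.

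The caseins were lowest in cow 6 as well, but they were bright in cow 4. Cow 4 was next lowest in CSN1S1 and CSN2, while cow 5 was next lowest in CSN1S2 and CSN3. CSN1S1, an alpha casein, had log2 values of 10.79, 11.88, 10.91, 9.69, 9.95 and 1.90 in cows 1 to 6, so that cow 4 was bright and cow 6 alone was below its array median. Without cow 6 its SD was 0.87 in place of 3.65. CSN1S2, the other alpha casein, had 8.63, 11.81, 9.44, 9.52, 5.04 and 1.53, with cow 5 also far below cows 1 to 4. CSN2 had 12.42, 13.23, 13.18, 11.80, 12.42 and 8.81, and CSN3 had 12.50, 12.47, 12.01, 12.29, 11.91 and 11.16. All 4 were lowest in cow 6, where CSN1S1 and CSN1S2 were below the array median and CSN2 and CSN3 were not. The 3 probe sets of CSN2 were each lowest in cow 6, and their distance from the highest to the lowest cow was 4.41 on the log2 scale for the brightest, 5.22 for the next and 7.69 for the dimmest. The 4 genes lie together on 1 chromosome in the RefSeq annotation of the ARS-UCD2.0 assembly, in the order CSN1S1, CSN2, CSN1S2 and CSN3 with 6 other annotated genes between the first and the last.

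**Figure D2:**
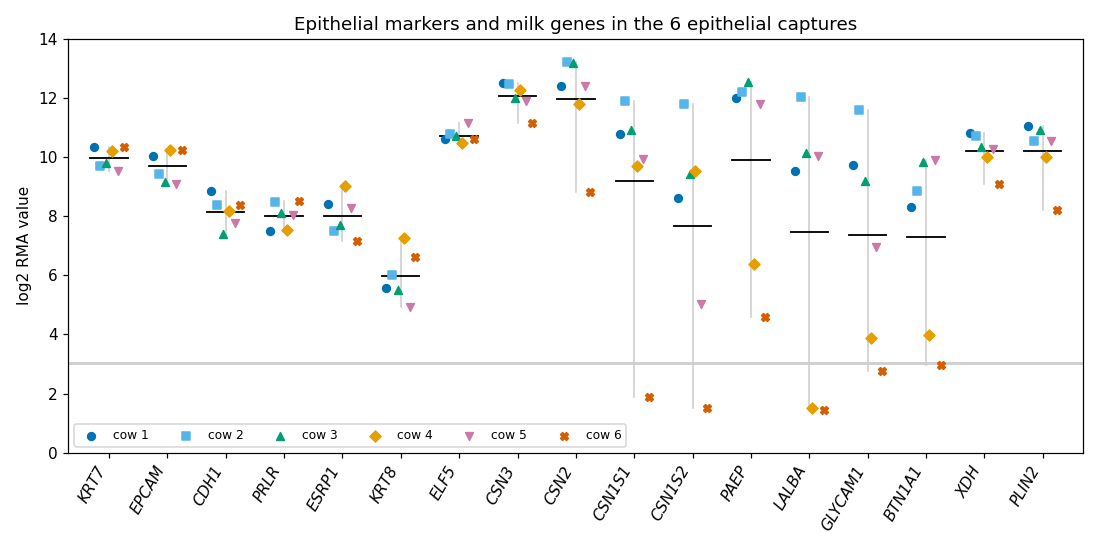
Log2 RMA values (y axis) of luminal markers and milk genes (x axis) in the 6 epithelial captures, 1 symbol per cow, with a black bar at the mean, a grey line over the range and a grey band over the 6 array medians. Markers from KRT7 to ELF5 lie close together, whereas LALBA and BTN1A1 are low in cows 4 and 6 and the caseins are lowest in cow 6.

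Other milk genes shared the low value in cow 6 to different degrees. Of the 8 analysed genes of the milk fat globule membrane, 7 were lowest in cow 6, where 13.1% of all analysed genes were lowest. PLIN2, the coat protein of lipid droplets, had 11.06, 10.53, 10.92, 9.99, 10.55 and 8.22 in cows 1 to 6, and XDH, xanthine dehydrogenase, ran from 9.09 in cow 6 to 10.82 in cow 1. Both stayed bright in cow 6, unlike BTN1A1. FABP3, a fatty acid carrier, had 7.66, 9.69, 8.91, 4.34, 6.29 and 2.66. MFGE8, lactadherin, was highest in cow 3 at 9.31 and was 6.15 to 8.38 in the others. In the list for fatty acid and triglyceride synthesis, 6 of 15 genes were lowest in cow 6. SCD, the desaturase that makes oleate, ran from 6.52 in cow 6 to 10.25 in cow 2, and LPIN1, a phosphatidate phosphatase, was 2.89 in cow 6 and 6.53 to 8.27 in the other cows. LPL, which releases fatty acids from blood lipids, was low in cow 4 and cow 6 at 2.67 and 2.19. IDH1, a source of NADPH, ran from 8.72 in cow 6 to 10.10 in cow 3, with an SD of 0.51.

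Lactose synthesis showed the same division between its parts. B4GALT1, the galactosyltransferase that alpha-lactalbumin modifies, had 9.66, 9.44, 9.76, 8.97, 9.52 and 6.55 in cows 1 to 6, and was therefore bright in cow 4 where LALBA was below the array median. Its second probe set was also lowest in cow 6, but at 7.89 against 8.69 to 9.51. SLC2A1, the basal glucose transporter, ran from 9.48 in cow 5 to 11.30 in cow 4. UGP2, which makes UDP-glucose, was 4.73 in cow 6 and 6.40 to 7.85 elsewhere, while SLC35A2, the Golgi carrier of UDP-galactose, was 7.27 in cow 2 and 3.53 in cow 6. Among transporters of milk secretion, ABCG2, which exports riboflavin and drugs into milk, had 4.91, 6.73, 6.91, 2.82, 6.36 and 2.67. SLC5A1, a sodium and glucose carrier, was lowest in cow 6 at 4.19 and next in cow 4 at 5.63. SLC38A2, a carrier of neutral amino acids, was bright and even at 10.74 ± 0.23 (SD, n = 6).

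Regulators of the milk genes differed among themselves. ELF5, the transcription factor of secretory commitment, had values of 10.47 to 11.16, with 10.60 in cow 6 and 10.47 in cow 4. CEBPB was lowest in cow 6 at 8.80 and highest in cow 4 at 10.39. NFIB was highest in cow 6 at 8.35, though its second probe set was highest in cow 5. STAT5B, which carries the prolactin signal, ran from 2.31 in cow 4 to 5.66 in cow 5, and NR3C1, the glucocorticoid receptor, from 2.84 in cow 3 to 5.93 in cow 1. Both were dim and had SDs above 1, at 1.16 and 1.21, and neither was lowest in cow 6. Of the 10 analysed genes among hormone receptors and STAT5 partners, 3 had an SD above 1, a share close to that of all genes.

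Genes of the endoplasmic reticulum, where milk proteins fold, differed less between cows but had the same lowest capture. Of 16 analysed endoplasmic reticulum chaperones and unfolded protein response genes, 10 were lowest in cow 6, where 13.1% of all genes were lowest. HSPA5, the main lumenal chaperone, had 9.96 in cow 6 and 10.81 to 11.36 elsewhere, and PDIA4, a disulfide isomerase, had 6.62 against 7.80 to 8.35. DDIT3, a transcription factor of the stressed reticulum, ran from 5.26 in cow 6 to 8.78 in cow 1, and CANX, which folds glycoproteins, lay at 9.73 to 10.22. The list mean was 7.51 in cow 6 and 7.82 to 8.58 in the others.

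**Figure D3:**
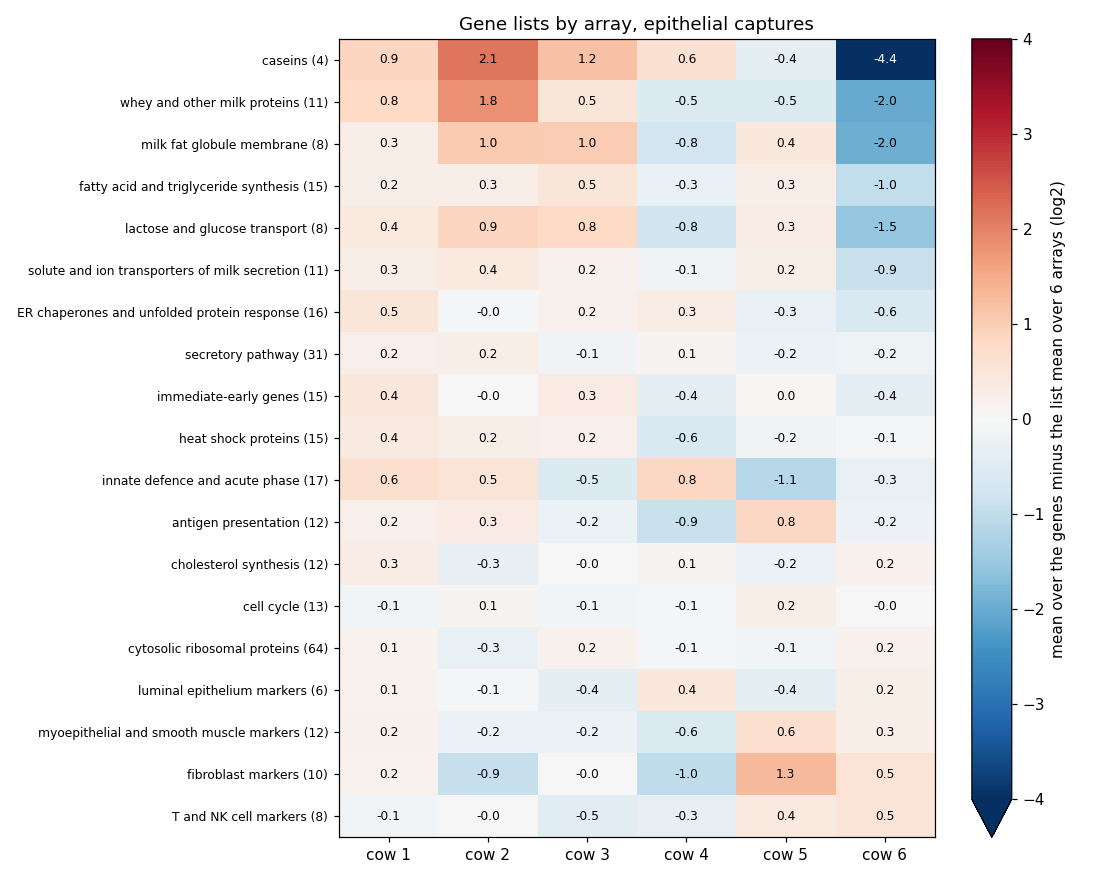
Colour and number give, for each gene list (rows, with the number of analysed genes) and each epithelial array (columns), the mean log2 RMA value of the list minus its mean over the 6 arrays. Caseins, other milk proteins and the fat globule membrane are lowest in cow 6, innate defence genes in cow 5, antigen presentation in cow 4, and the ribosomal and luminal lists stay near 0.

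Outside milk synthesis, the largest SD was in class I antigen presentation. BOLA, a heavy chain gene of the polymorphic bovine major histocompatibility complex, had log2 values of 12.07, 10.96, 4.05, 3.80, 12.30 and 3.50 in cows 1 to 6, an SD of 4.40. BOLA-N, another class I gene, had 8.42, 7.37, 2.33, 1.97, 9.33 and 1.98. Both were bright in cows 1, 2 and 5 and far lower in cows 3, 4 and 6, with none between, and in those cows BOLA was still above the array medians while BOLA-N was below them. B2M, which pairs with every class I heavy chain, was even in the same captures. The class II gene BOLA-DRA was 9.59 ± 0.25 (SD, n = 6), while BOLA-DQA1 ran from 3.28 in cow 1 to 8.54 in cow 6.

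The remaining genes with large SDs had no common order of cows. MGP, an inhibitor of calcification, had 10.47, 2.23, 5.24, 9.79, 3.42 and 7.04, but its 3 other probe sets were dimmer, with an SD of 0.97 at most. ACP5, an acid phosphatase of macrophages and osteoclasts, was 2.70 in cow 3 and 6.89 to 9.85 in the other cows, whereas neither of its other probe sets was lowest in cow 3. RBM6, an RNA-binding protein, was likewise lowest in cow 3, at 2.52 against 7.48 to 9.10, but its second, dimmer probe set was highest there, at 4.92. SLC25A20, the mitochondrial carnitine carrier, was highest in cow 3 at 12.51 and lowest in cow 6 at 5.30. DKK3, a secreted relative of Wnt inhibitors, was 2.29 and 2.24 in cows 3 and 5 and 6.49 to 8.15 in the others, an order that its second probe set, lowest in cow 1, did not share. SALL2, TASP1 and IRF5 had means below 5. The gene ranked 25th had an SD of 2.44 and the next 2.41.

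**Figure D4:**
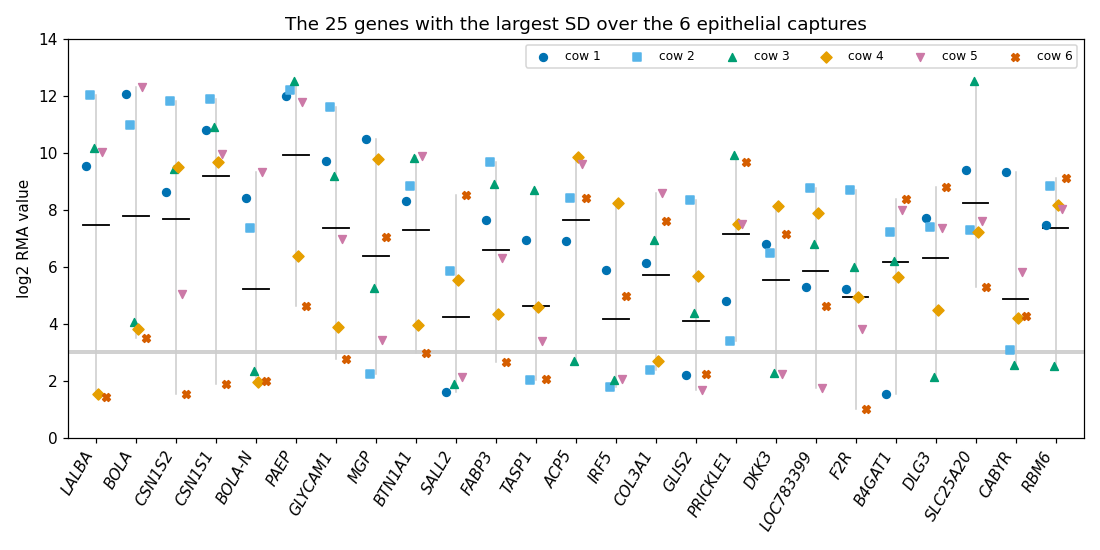
Log2 RMA values (y axis) in the 6 epithelial captures, 1 symbol per cow, for the 25 genes with the largest SD over the arrays (x axis, in order of SD), with a black bar at the mean, a grey line over the range and a grey band over the array medians. LALBA and BOLA each split into bright and far dimmer captures, but in different cows.

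Different probe sets of 1 gene were often at odds. Among 297 genes with an SD above 1 and a second analysed probe set, the correlation between both probe sets over the 6 arrays had a median of 0.30, with 52 genes above 0.8. In the 18 of these where both probe sets had means above 7, the median was 0.65. Of the 1605 genes with an SD above 1, cow 3 was the farthest from the gene's median in 29.5%, cow 2 in 20.1%, cow 5 in 17.0%, cow 6 in 14.6%, cow 1 in 10.1% and cow 4 in 8.66%. Cow 3 also had the highest control RNAs and the smallest GAPDH gap, and a link to its spread was not tested. Cow 6 thus stood apart in milk genes but not over the variable genes as a whole.

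Several defence proteins were lowest in cow 5 or cow 3. LTF, the iron-binding lactoferrin, had 11.79, 11.79, 10.26, 12.13, 9.40 and 11.35 in cows 1 to 6. SPP1, osteopontin, had 10.83, 11.38, 9.55, 11.44, 8.41 and 10.88. Both were lowest in cow 5 and next in cow 3, and S100A2 and SAA3, a mammary acute phase protein, were ordered that way as well. EPCAM, EZR and FTH1 had the same 2 lowest cows, so this order was not particular to defence. C3, the central complement protein, was 7.21 in cow 3, 9.97 in cow 5 and 11.23 to 12.27 in the others. Its second probe set was also lowest in cow 3 at 6.87, but cow 6 at 7.45 was below cow 5 at 8.07. CFB, also of the complement pathway, was 1.68 and 2.42 in cows 3 and 5 and 4.90 to 6.30 elsewhere. LBP, which binds bacterial lipopolysaccharide, was 4.37 in cow 5 and 4.42 in cow 6 against 6.49 to 8.78. LAP, an antimicrobial peptide of the beta-defensin family, was 2.11 in cow 5 only and 6.29 or more in the others. Of the 17 analysed genes of innate defence and acute phase, 11 had an SD above 1, against 30.8% of all genes. In this list 6 genes were lowest in cow 5 and 4 in cow 3, where 21.1% and 21.9% of all genes were lowest.

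Several heat shock and immediate-early genes were lowest in cow 4. HSPA1A, an inducible heat shock protein, had 11.40, 11.41, 11.70, 8.39, 11.89 and 11.35 in cows 1 to 6, and its next 2 probe sets were also lowest in cow 4. DNAJB1, its cochaperone, had 6.60 in cow 4 and 9.21 to 10.28 elsewhere. ATF3, an immediate-early factor, had 5.66 in cow 4, 6.79 in cow 6 and 8.02 to 9.41 in the others. JUN was 10.81 in cow 4 and 11.54 to 11.85 elsewhere, and EGR1 and DUSP1 were bright in all captures, at 10.81 or more and 10.70 or more. ZFP36, which destabilizes inflammatory mRNAs, was instead lowest in cow 6, at 6.94 against 9.01 to 10.33. Of 15 analysed heat shock protein genes, 8 were lowest in cow 4, where 10.97% of all genes were lowest. Among glucocorticoid targets SGK1 lay between 9.75 and 11.30, FKBP5 between 6.46 and 8.88, and the metallothionein MT2A between 7.00 and 10.08, all with the medium's hydrocortisone present.

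The collagen genes COL3A1, COL1A1 and COL1A2 varied widely between cows, but COL6A1, another collagen, was even with an SD of 0.30. COL3A1, a fibrillar collagen, had log2 values of 6.15, 2.37, 6.93, 2.69, 8.59 and 7.62 in cows 1 to 6, and its second probe set was also highest in cow 5. COL1A1 had 4.92, 3.21, 7.14, 4.97, 8.12 and 7.50, and COL1A2 had 4.76, 4.06, 2.06, 3.08, 8.41 and 6.84. By the brightest probe sets, cows 5 and 6 had the highest values of these 3 collagens. In the second probe set of COL3A1, cow 3 at 5.48 was above cow 6 at 4.94. Of the 10 analysed fibroblast markers, 7 had an SD above 1, against 30.8% of all genes. That share was 35.4% for means from 3.51 to 5 and 36.5% from 5 to 7. VIM, the filament protein of mesenchymal cells, lay between 4.49 and 6.30. The part of captured stroma in the differences between cows was not tested.

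Proliferation genes were mostly dim, with a median mean of 4.51 over 13 analysed genes. Of these, 6 (46.2%) had an SD above 1, against 30.8% of all genes. BIRC5, a mitotic survivin, ran from 4.27 in cow 5 to 8.38 in cow 2. MCM7, a subunit of the replicative helicase, ran from 5.04 in cow 2 to 7.74 in cow 6. HMGB2, a chromatin protein of dividing cells, was even at 9.72 ± 0.24 (SD, n = 6). Cholesterol synthesis was steadier by that count, since 2 of 12 analysed genes (16.7%) had an SD above 1. INSIG1, the sterol sensor that ranked highest there, was 8.40 in cow 6 and 9.28 to 10.08 elsewhere, and SQLE, squalene epoxidase, lay between 7.83 and 8.99.

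To ask which genes vary with the caseins, the casein mean of an array was taken as the mean over the 4 casein genes of the log2 value minus the gene's own mean. It was 0.86, 2.13, 1.17, 0.60, -0.39 and -4.37 in cows 1 to 6, so cow 6 lay far from the rest and sets much of any slope. The 6 pairs of casein genes had Pearson r of 0.83 to 0.98 over the 6 cows. By an exact permutation test, two-sided and adjusted over 15 pairs of milk proteins, 3 of the 6 passed 0.05, with adjusted p from 0.0156 to 0.116. The closest pair was CSN1S1 and CSN2, with Pearson r = 0.98 (exact permutation p = 0.00139, the smallest that 6 arrays allow for Pearson r here, adjusted p = 0.0156) and Spearman rho = 1 (exact p = 0.00278, adjusted p = 0.0417). Without the 2 cows farthest from the median the 6 values of r were -0.42 to 0.82, and cow 6 was left out each time. The relation among caseins thus rests largely on cow 6, and only CSN1S1 and CSN2 kept r above 0.8. LALBA and PAEP fell into separate clusters of cows, so no pooled r is given for them, although pairs with them were among the 15 and brought the pairs past the threshold to 8.

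A linear model in limma of each probe set on the casein mean called 0% of 10080 probe sets rising and 0% falling at an adjusted p of 0.05, where the lowest adjusted p was 0.312. It also called 0 with the fibroblast marker mean, the GAPDH gap or the control RNAs as a covariate. At an unadjusted p under 0.05 there were 573, which is 5.68% of those fitted. Genes are therefore named by their correlation and not by a call. Among the 3984 genes with an SD above 0.5 the median r with the casein mean was -0.02. The 15 genes with the highest r, at 0.93 or more, were all lowest in cow 6, and the 15 with the lowest r, at -0.93 or less, were all highest in cow 6.

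PDK4, which shuts pyruvate out of the citrate cycle, had log2 values of 9.86, 10.06, 8.89, 10.07, 8.92 and 4.09 in cows 1 to 6. Its other 2 probe sets were lowest in cow 6 as well. Its r with the casein mean was 0.95, with a slope of 0.95 ± 0.15 (SE) per unit of the casein mean and a limma adjusted p of 0.453, and without cows 2 and 6, the 2 farthest from the median casein mean, r was 0.25. G0S2, an inhibitor of triglyceride breakdown, had 9.33, 10.29, 9.74, 9.98, 8.29 and 6.44, with r = 0.97, and r = 0.84 without these cows. SLC22A5, the carnitine importer, had 8.65, 8.80, 7.72, 8.21, 7.12 and 4.82, with r = 0.97, and r = 0.65 without them. Both followed the order of the caseins more closely than PDK4 in the 4 remaining cows.

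SDC2, a heparan sulfate proteoglycan of the cell surface, had 6.96, 7.70, 7.07, 6.81, 5.04 and 2.79, with r = 0.98. It kept r = 0.97 without the 2 farthest cows, and its second probe set was also lowest in cow 6. F2R, the thrombin receptor, had r = 0.93 and also ranks 20th by SD, from 1.01 in cow 6 to 8.71 in cow 2. Its other 2 analysed probe sets went another way, being highest in cow 4 and not lowest in cow 6, where they had 4.11 and 3.23. ZGPAT, a zinc-finger repressor, had the highest r, 0.99, over a range of 4.22 to 5.84. PDIA4 and the calcium channel ITPR2 had r of 0.94 and 0.95, and without the 2 farthest cows r was 0.92 for PDIA4 and -0.02 for ITPR2. Of these 15 genes, 5 had means above 7. They were chosen by r over all 6 arrays, so values of r over 4 of those arrays are a description and no separate support.

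The opposite group was dim, and 0 of its 15 genes had a mean above 7. MME, the membrane peptidase neprilysin that marks myoepithelial cells in the breast, had log2 values of 5.23, 4.39, 4.41, 4.90, 5.97 and 7.96 in cows 1 to 6, with r = -0.98 and a limma adjusted p of 0.490. Without the 2 farthest cows its r was -0.92, and in its second probe set cows 5 and 6 were highest at 6.68 and 6.67. CD3G, a chain of the T cell receptor complex, was 6.20 in cow 6, 4.93 in cow 5 and 2.73 to 3.73 in the others. PTPRC, the common leukocyte antigen, was not among the 15 but had r = -0.92 and its highest value, 9.46, in cow 6. The T and NK cell list had a mean of 5.89 in cow 6, 5.79 in cow 5 and 4.93 to 5.38 elsewhere. Its members were divided, since 3 of the 8 analysed genes had a positive r with the casein mean. Of the 8, 4 were highest in cow 6 and 3 in cow 2, where 16.2% and 17.0% of all genes were highest. The part of T and NK cells in the casein differences was not tested. CDK2, a cyclin-dependent kinase, was 6.85 in cow 6 and 3.11 to 4.53 in the others, OPTN, an autophagy receptor, 6.42 against 3.90 to 4.99 but highest in cow 4 by its second probe set, and GCNT1, a glycosyltransferase of mucins, 7.13 against 2.65 to 4.01.

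By list, with LALBA and PAEP left out, all 8 analysed genes of the fat globule membrane had a positive r with the casein mean, with a median of 0.85, and all 9 whey and other milk proteins did too, with a median of 0.40. The median over all analysed genes was -0.02, and 2499 of 5206 were positive. Without cows 2 and 6 the medians were 0.32 for membrane genes, with 5 of 8 positive, and 0.52 for milk proteins, with 7 of 9 positive, against 0.11 over all genes. BTN1A1, PLIN2 and XDH then had r of -0.14, 0.36 and 0.28. The relation of the membrane genes to the caseins thus rested largely on those cows. Endoplasmic reticulum chaperones had a median r of 0.51 with 14 of 16 positive, and 0.60 with 14 positive without the 2 cows. Ribosomal proteins had a median of -0.40 with 11 of 64 positive, which turned to 0.63 with 54 positive, and the luminal markers went from -0.30 to 0.20. T and NK cell markers had -0.55 with 3 of 8 positive, and -0.49 with 2 positive without the 2 cows. At an unadjusted p under 0.05 in the positive direction stood 4 of 8 membrane genes, 3 of 9 milk proteins, 4 of 15 fatty acid and triglyceride genes and 3 of 7 lactose and glucose genes, and 124 of all genes. Some genes, such as FABP3, belong to more than 1 list, and 0 passed the adjusted threshold.

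**Figure D5:**
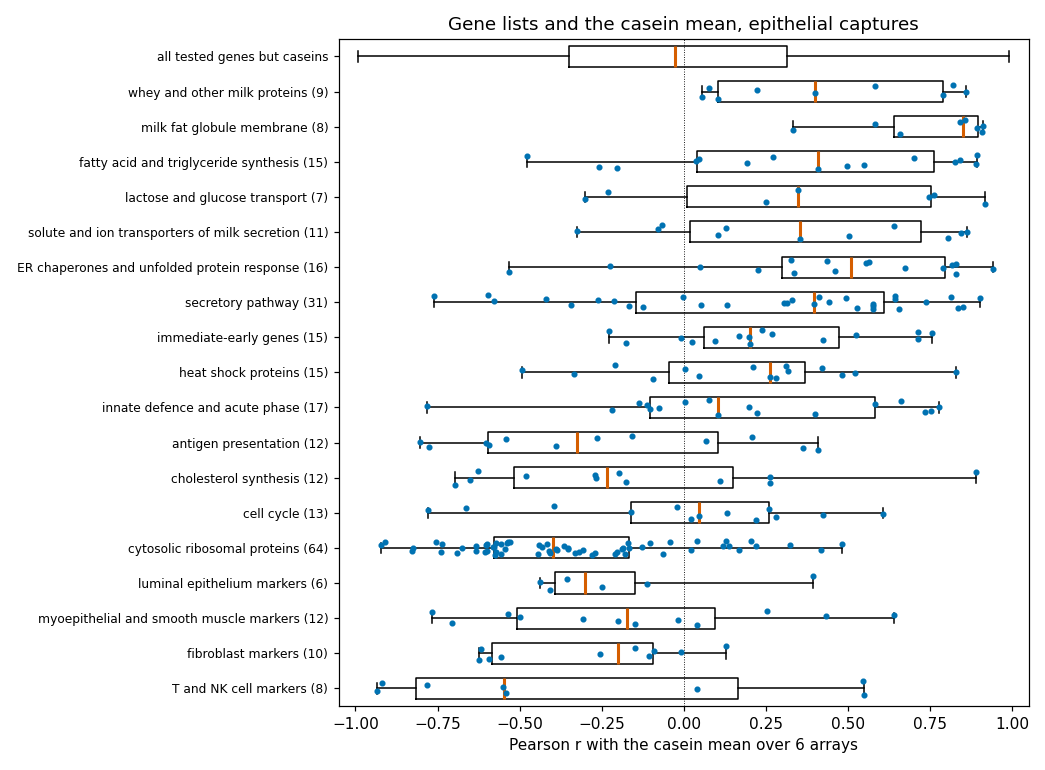
Pearson r of each gene with the casein mean over the 6 epithelial arrays (x axis) by gene list (y axis, with the number of analysed genes, LALBA and PAEP left out), where points are genes, boxes span the quartiles, the orange line is the median and whiskers reach the extremes. Fat globule membrane and milk protein genes all lie above 0, and the box of all genes is centred near 0.

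Lactation number was compared in the same way, with cows 1 and 2, labelled 3 and 2, against cows 3 to 6, labelled 1. The limma fit called 0% of 10086 probe sets higher and 0% lower, and the lowest adjusted p was 0.776. At an unadjusted p under 0.05 there were 561, or 5.56%. With 2 cows against 4, a lack of calls does not show that the groups were alike. CSN1S1 was 10.79 and 11.88 in cows 1 and 2, and 1.90 to 10.91 in the others, so the groups overlapped.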

How the data were processed

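The deposited file held log2 values. To make them, the authors ran RMA, with quantile normalization, on 24 arrays together, of which 12 were in the file given. The 6 epithelial columns were matched by sample title, and no value was normalized again. Of 24016 probe sets other than 112 controls, 13292 had 1 gene symbol, 86 several and 10638 none, and 13263 were matched by gene ID to RefSeq names with 0 changed. The brightest 42% by mean over the 6 arrays, close to the share that the study kept by detection calls, were analysed, which set the lowest mean at 3.51. A gene was the brightest of its probe sets with 1 symbol.

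The slope on the casein mean and the contrast of lactation number were fitted with limma 3.58.1 in R 4.3.3, with Benjamini-Hochberg adjustment over all probe sets fitted and a threshold of 0.05, and the fits were tested on simulated data. Casein probe sets were left out of the casein fit. Pairs of milk proteins were tested by exact permutation over arrays in Python 3.11.15 with scipy 1.17.1. The 6 arrays are 6 cows with 1 array each. Spread between animals therefore cannot be told apart from that of capture, amplification and hybridization. Protocols in the labels and in the methods give the hormones of the medium with different units, and no dose is given here.

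The text names the markers, the caseins and whey proteins, genes among the 25 highest by mean and the 25 largest by SD, genes among the 15 highest and 15 lowest by r with the casein mean and an SD above 0.5, and up to 4 genes of each list by mean or SD. PDGFRA was named as a defining marker after its values were seen. These choices and the gene lists were made with earlier results of these data known. Alternatives were filters on low values, renormalization, centring, the prior of limma, covariates for RNA quality and fibroblast markers, and leaving out each cow.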

Additional observations from a re-analysis of the deposited data

Results flagged for a closer look

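Of 102 genes named here, 17 had 1 cow standing apart from the other 5, measured as the gap to the nearest cow divided by the whole range. Chance flags about 1 in 20 sets of 6 arrays, but that rate does not apply here, since many of these genes were named for a large SD or for their r with a casein mean that cow 6 sets, and the genes of 1 cow are not independent. No cause was tested. In cow 6 the lowest value stood apart for CSN1S1 (gap ratio 0.781), CSN2 (0.676), LPIN1 (0.678), B4GALT1 (0.753), PDK4 (0.803) and PDIA4 (0.681), which include caseins, lactose synthesis and lipid handling. In the same cow the highest value stood apart for ACTB (0.761) and GCNT1 (0.698), although ACTB in cow 6 was 12.08 against 11.73 to 11.82, a small difference in a very even gene.

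Cow 4 had the lowest value apart for HSPA1A (0.845), DNAJB1 (0.709), JUN (0.703), EEF1A1 (0.704) and VIM (0.638). The first 3 are stress or immediate-early genes, while EEF1A1 had a whole range of 0.16. In cow 3, RBM6 was lowest (0.754), though its second probe set was highest there, and RPSA was highest (0.750). LAP was lowest in cow 5 (0.758), and HMGB2 was lowest in cow 1 (0.714), at 9.25 against 9.74 to 9.94.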

How the results depend on the processing

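No paired analysis was possible because only 1 tissue was analysed and each cow gave 1 epithelial array. The casein fit called 0 probe sets in either direction under every alternative but 1, an intensity trend with a robust prior, which called 1 probe set rising with an adjusted p of 0.031. Ranks of the casein mean in its place, chosen after seeing the data, called 0. Lactation number gave 0 calls under all alternatives run, with a lowest adjusted p of 0.068 without cow 5. Tested probe sets with an SD above 1 numbered 3501 (34.7%), and 1353 (28.2%) among the brightest 20% of probe sets, where fewer were tested. Over the single cows left out they ran from 3038 without cow 3 to 3718 without cow 4. Pairs of milk proteins past the adjusted threshold were 8 of 15 over all cows and 0 to 6 with 1 cow left out, with 0 without cow 6, 3 without cow 2, 3 without cow 4 and 3 without cow 5. The cause of these differences was not tested, but 5 arrays also allow fewer permutations. Of the 25 highest genes by mean, 23 to 25 stayed with 1 cow left out. Means over all probe sets of a gene moved the level of 20 of the 102 genes named by more than their SD. Slopes on the casein mean were refitted for 13 named genes, and 0 of 229 values changed sign. These genes were chosen for their r with the casein mean over the same arrays, so the stable sign is no separate support.

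Signal limits the dim genes most, and over 971 genes with 2 analysed probe sets the correlation between both had a median of 0.27. Among the 3 probe sets of CSN2 the brighter ones showed smaller distances between cows, though even the brightest spanned 4.41.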

Other observations

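The stroma captures of the same cows had their own values for milk genes, which enter no comparison here. In cows 1 to 6 the stroma capture had log2 values of 11.67, 12.79, 12.58, 8.95, 11.47 and 4.82 for CSN2 and of 6.98, 10.40, 7.65, 2.95, 8.03 and 2.10 for LALBA. PAEP had 9.68, 11.31, 11.71, 2.80, 10.85 and 3.14. The stroma captures of cows 4 and 6 were thus also the dimmest for LALBA and PAEP, and that of cow 6 for CSN2. The 2 captures of a cow come from the same explants, so they are no independent sample of it, and epithelial RNA in the stroma captures was not tested.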
